A study of Mus musculus with 2 samples.

Results

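The CD surface antigen genes described here are 34 genes whose symbol is Cd followed by a number, measured in red cell progenitors of the mouse fetal liver. In the matrix of 17608 genes, 82 symbols had that form, and 73 remained after Cd24a, Cd27, Cd34, Cd47, Cd48, Cd52, Cd63, Cd74 and Cd9 were set aside. The genes were chosen by their summed count of unique molecular identifiers (UMIs, each standing for 1 captured RNA molecule): 34 had at least 100 UMIs over all cells, and 39 had fewer, 3 of them 0. Just inside the limit were Cd86 with 127 UMIs, Cd46 with 116, Cd33 with 108 and Cd36 with 103. Just outside were Cd38 with 67, Cd28 with 56, Cd244a with 46 and Cd3d with 45. The label holds for most of the set, but Cd3eap (a subunit of RNA polymerase I), Cd2ap (a cytoplasmic adaptor protein) and Cd2bp2 (a protein tied to splicing) match by symbol alone and are not surface antigens. Cd5l is a protein secreted by macrophages, and Cd68 lies mainly in their lysosomes.

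All cells came from C57BL/6 embryos at E14.5 (the embryonic day) and were labelled low for CD71, the transferrin receptor, and CD24. One library pooled 4 isolations carrying hashing antibodies, named PE-low, PE-high, FACS BFU-E and FACS CFU-E, from a magnet method and from fluorescence-activated cell sorting (FACS). The other library, of lineage-depleted cells, was stained with barcoded antibodies against CD117 and CD71 (CITE-seq), and its cells are named CS BFUE, CS CFUE or have no pool. A BFU-E is an early progenitor restricted to red cells and a CFU-E a later one. What PE and CS stand for, how the CS names were assigned and how many embryos were used were not given in the sources used here. Culture in erythroid expansion medium with dexamethasone or methanol is described in the labels, which do not say whether the sequenced cells had been in it. FACS BFU-E, PE-low and CS BFUE are called the earlier pools below, and FACS CFU-E, PE-high and CS CFUE the later pools. Values for them are given in that order. Each pool is 1 sample, so no difference has a replicate check and no p-value is given. The 95% intervals in parentheses cover counting error only.

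CD numbers are given to cell surface molecules recognised by sets of monoclonal antibodies, and many were first described on white blood cells. The set spans tetraspanins, which organise other membrane proteins into patches, complement regulators that shield cells from lysis, scavenger and innate receptors of myeloid cells, parts of the lymphocyte antigen receptors, and lectin-like or costimulatory receptors. Blood progenitors are usually sorted by such antigens. RNA was measured here, not surface protein.

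The pools held 122 to 294 cells and 2968491 to 11003022 UMIs, with a median per cell from 23449 UMIs in CS BFUE to 38663.5 in PE-high. The 2136 CITE-seq cells with no pool had a median of 28855, and the libraries shared 0 barcodes. Stage markers followed the pool names. Summed early erythroid markers were at 829 to 993 CPM (UMIs scaled so that each pool has an equal total) in the earlier pools and 236 to 329 in the later ones, and CFU-E stage markers at 798 to 1226 against 3133 to 3986. Cells were also clustered without any of the 34 genes, and 533 of 3357 cells (15.9%) lay in 4 clusters with top genes of another cell type, called other-lineage clusters below. They made up 27.5%, 26.4% and 35.2% of the earlier pools and 0.599%, 5.78% and 7.18% of the later ones. Granulocyte progenitor markers summed to 1338, 724 and 633 CPM in the earlier pools and 6.74, 248.8 and 13.8 in the later ones.

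**Figure D1:**
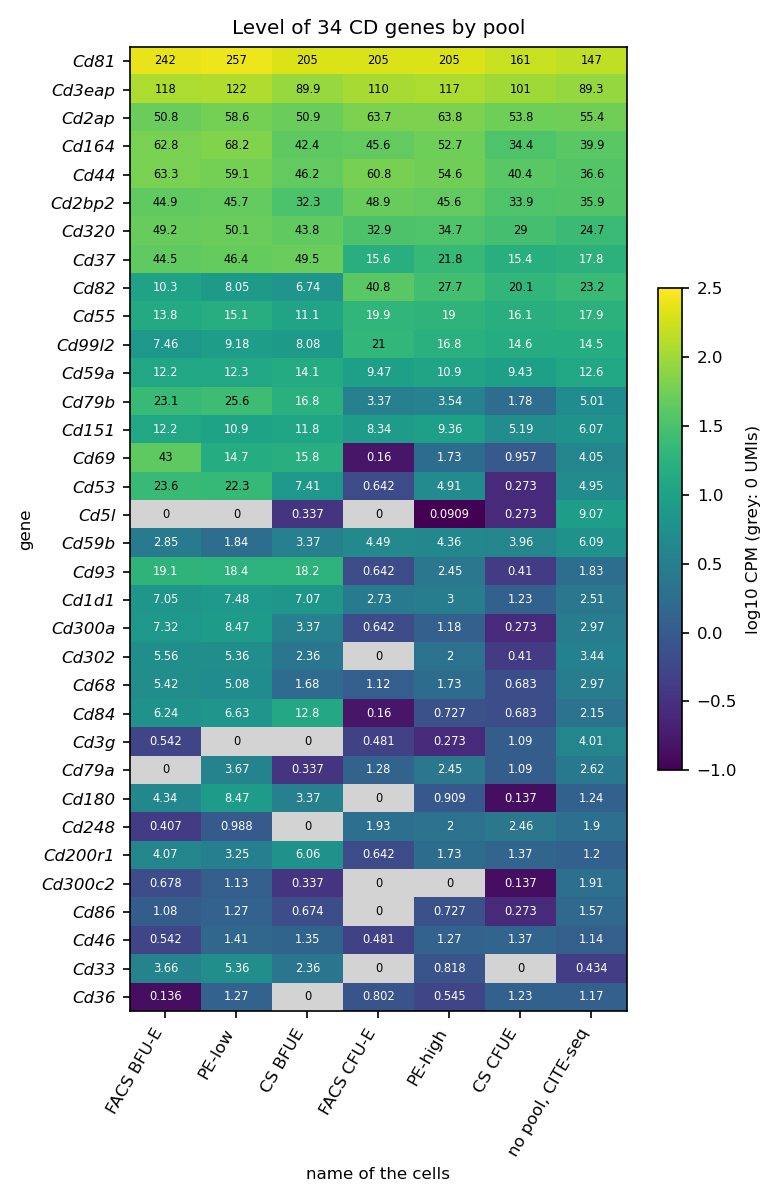
Level of each of the 34 genes, ordered by UMIs in the matrix, in the 3 earlier pools, the 3 later pools and the CITE-seq cells with no pool, coloured by log10 CPM with the CPM printed and grey for 0. The top 8 genes are above 15 CPM in every column, Cd82 and Cd99l2 are higher in the 3 later pools, and Cd79b, Cd69, Cd53 and Cd93 are higher in the 3 earlier ones.

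Antigen genes were more often high early than late. Of the 34 genes, 17 were higher in all 3 earlier pools than in any later pool, as were 25.6% of the 10630 genes with at least 100 UMIs. Another 5 (Cd82, Cd55, Cd99l2, Cd59b and Cd248) were higher in all 3 later pools, as were 14.1% of all genes, and 12 overlapped. Ratios were then taken in 3 pairs of an earlier and a later pool, for genes with at least 50 UMIs over both, and a gene was counted at a ratio of at least 1.5. In the FACS pair, 7 of 19 genes were higher early and 2 late, with 19.2% and 9.56% of all genes compared (28.7% either way). In the PE pair, 11 of 25 were higher early and 3 late, with 16.3% and 7.52% of all genes (23.9% either way). In the CS pair, 7 of 16 were higher early and 2 late, with 14.8% and 11.9% of all genes (26.7% either way). The share in the earlier direction lay above that of all genes in each pair, and the share in the later direction was near it. The median log2 ratio was 0.46, 0.53 and 0.33 in the FACS, PE and CS pair, against 0.04, 0.04 and -0.01 over all genes. Cd37, Cd79b, Cd69 and Cd93 passed 1.5-fold in the earlier direction in all 3 pairs and Cd82 and Cd99l2 in the later direction, and 0 genes went both ways. Of the 34 genes, 16 were compared in all 3 pairs, and the share of all genes passing in all 3 was not taken.

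**Figure D2:**
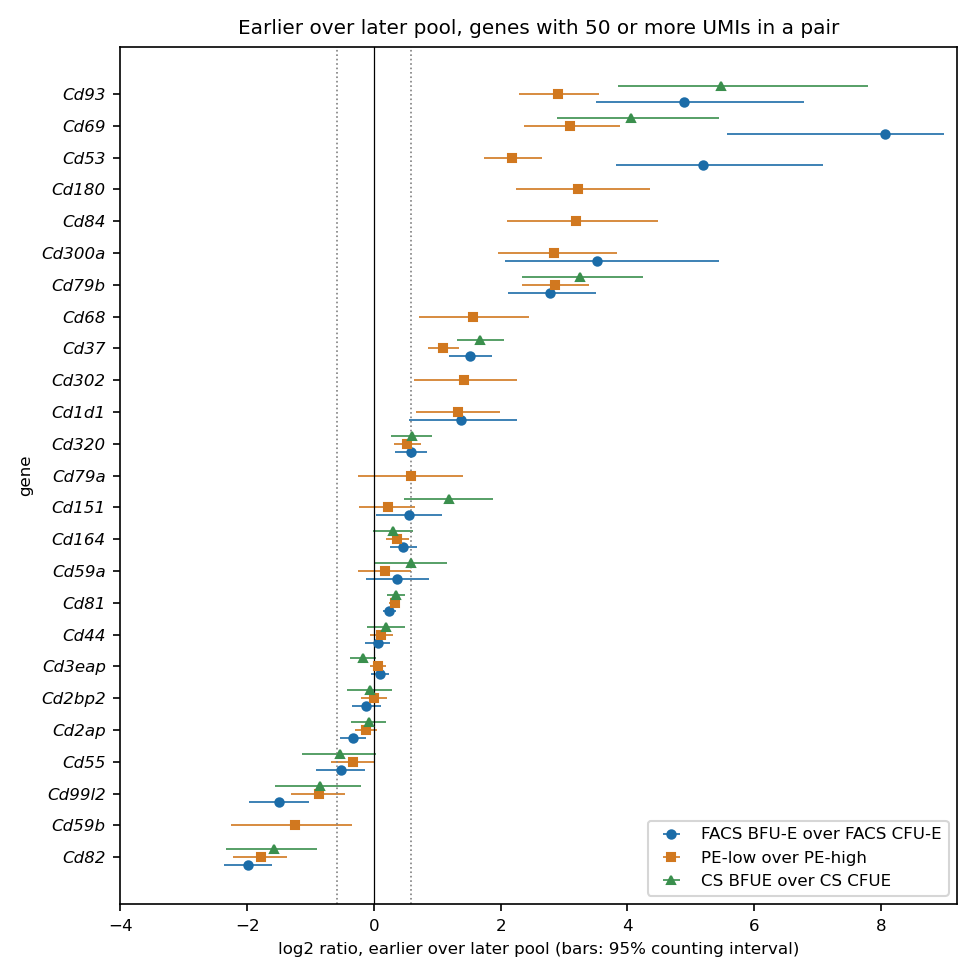
Log2 ratio of the earlier over the later pool for each gene with at least 50 UMIs in a pair, with 95% counting intervals clipped at 9 and dotted lines at 1.5-fold. Cd82 and Cd99l2 lie beyond the line on the later side in all 3 pairs, while Cd93, Cd69, Cd79b and Cd37 lie beyond it on the earlier side.

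The genes of the set with the most UMIs differed little between the pools of each pair. Cd81, a tetraspanin found on most cells, was at 242, 257 and 205 CPM in the earlier pools and 205, 205 and 161 in the later ones. It was higher in the earlier pool of each pair, by at most 1.28-fold (1.16 to 1.41), in the CS pair. Cd164, a sialomucin involved in adhesion of progenitors, was at 62.8, 68.2 and 42.4 CPM against 45.6, 52.7 and 34.4. Cd44, the hyaluronan receptor, was at 63.3, 59.1 and 46.2 CPM against 60.8, 54.6 and 40.4. For both, the pools of the stages overlapped. Cd3eap, at 89.9 to 122 CPM over the 6 pools, and Cd2ap, at 50.8 to 63.8, also overlapped. The locus of Cd3eap shares 518 bases with Ercc1, and strand-aware counting is not stated, so reads there may belong to either. Along the bins of cells described below, 3 of these genes did pass 1.5-fold in the CITE-seq library. In all, 7 genes were compared in 3 pairs and passed 1.5-fold in none, and the share of all genes that did so was not taken.

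Cd320, the receptor that takes up vitamin B12 bound to transcobalamin, lay at the limit. It was at 49.2, 50.1 and 43.8 CPM in the earlier pools and 32.9, 34.7 and 29.0 in the later ones, so the stages did not overlap. Its ratio was 1.496 (1.26 to 1.78) in the FACS pair, 1.44 (1.25 to 1.67) in the PE pair and 1.51 (1.21 to 1.89) in the CS pair. With the other-lineage clusters left out these were 1.52 (1.26 to 1.83), 1.37 (1.16 to 1.61) and 1.26 (0.953 to 1.66), so the pair past 1.5-fold changed from CS to FACS.

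Cd82 was the antigen gene that most separated the stages in the later direction. It encodes a tetraspanin (KAI1) known as a suppressor of cell migration, at chr2:93419102-93462950 on GRCm38.p6. Its level was 10.3, 8.05 and 6.74 CPM in the earlier pools and 40.8, 27.7 and 20.1 in the later ones. All 3 later pools lay above all 3 earlier ones. The later pool was 3.95-fold higher (3.05 to 5.18) in the FACS pair, 3.45-fold (2.59 to 4.66) in the PE pair and 2.98-fold (1.86 to 5.02) in the CS pair. Outside the other-lineage clusters the ratios were 3.71 (2.80 to 4.995), 3.42 (2.48 to 4.80) and 3.94 (2.08 to 8.40), so the difference was of like size within the remaining cells. Among the later pools, FACS CFU-E was 1.47-fold (1.24 to 1.74) above PE-high. Annotated neighbours Gm10804 and Mir7001 overlap the locus, the larger of the overlaps over 10132 bases.

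Cd99l2, an adhesion molecule of the CD99 family encoded on the X chromosome, had the same order at smaller size. It was at 7.46, 9.18 and 8.08 CPM in the earlier pools and 21.0, 16.8 and 14.6 in the later ones. The later pools were higher by 2.82-fold (2.04 to 3.94), 1.83-fold (1.37 to 2.47) and 1.81-fold (1.15 to 2.95), and the last 2 intervals reach below 1.5. Complement regulators differed among themselves. Cd59b was at 2.85, 1.84 and 3.37 CPM in the earlier pools and 4.49, 4.36 and 3.96 in the later ones, with 2.38-fold more (1.27 to 4.78) in PE-high than in PE-low. Its neighbour Cd59a, which like it blocks the membrane attack complex, was at 12.2, 12.3 and 14.1 CPM against 9.47, 10.9 and 9.43, and reached 1.5-fold in the CS pair with an interval of 0.997 to 2.23. These paralogs are close in sequence, so the division of reads between them is uncertain. Cd55, the decay-accelerating factor, named after its values were seen, was at 13.8, 15.1 and 11.1 CPM against 19.9, 19.0 and 16.1 and passed 1.5-fold in no pair. Without the other-lineage clusters Cd55 was at 17.9, 19.0 and 15.2 CPM against 20.0, 19.8 and 16.5. The stages then overlapped, and the interval of each pair's ratio included 1.

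Cd37, a tetraspanin best known on B cells, had the most UMIs of the genes that were higher early in all 3 pairs. It was at 44.5, 46.4 and 49.5 CPM in the earlier pools and 15.6, 21.8 and 15.4 in the later ones. The earlier pools were higher by 2.86-fold (2.27 to 3.62), 2.13-fold (1.80 to 2.53) and 3.21-fold (2.49 to 4.14). The other-lineage clusters held 41.5%, 54.4% and 58.5% of its UMIs in the earlier pools. Without them the ratios were 2.34 (1.82 to 3.03), 1.67 (1.34 to 2.09) and 1.95 (1.40 to 2.70), the same direction at a smaller size. Cd1d1, which presents lipid antigens to natural killer T cells, was at 7.05, 7.48 and 7.07 CPM against 2.73, 3.00 and 1.23, and without those clusters at 5.59, 5.64 and 6.07 against 2.74, 2.65 and 1.33. Cd151, a tetraspanin that partners laminin-binding integrins, was at 12.2, 10.9 and 11.8 CPM against 8.34, 9.36 and 5.19. It passed 1.5-fold in the CS pair alone, at 2.27 (1.39 to 3.69), and at 1.62 (0.853 to 2.96) without the clusters.

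With the 533 cells left out, fewer genes were higher early. They were 4 of 14 in the FACS pair (Cd320, Cd37, Cd59a and Cd69, with 14.4% of all genes), 2 of 15 in the PE pair (Cd37 and Cd1d1, 11.7%) and 3 of 13 in the CS pair (Cd37, Cd59a and Cd151, 10.5%). In the later direction the counts were 2, 3 and 2, of the same genes as before (8.53%, 7.16% and 11.3% of all genes). The Cd99l2 ratios were then 2.42 (1.72 to 3.44), 1.55 (1.15 to 2.11) and 1.64 (0.985 to 2.87). Cd59b was at 1.82 (0.971 to 3.67) in the PE pair, so some of these intervals include 1. Of the 4 genes past the limit early in all 3 pairs, Cd37 was past it again in all 3. Cd79b and Cd93 then had under 50 UMIs in each pair and were not counted, although the Cd79b ratios were 48.2 (8.20 to 1948), 15.1 (5.92 to 49.0) and 12.6 (3.32 to 70.2). Cd69 had under 50 UMIs in the PE and CS pairs. The Pf4 and Gata2 cluster, described below, was kept here. It held 95 of the 192 Cd37 UMIs left in FACS BFU-E and 80 of the 150 left in PE-low. For Cd79b it held 35 of 43 and 30 of 38.

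To follow the antigens along the red cell path without pool names, cells outside the other-lineage clusters were ordered by the log summed CFU-E stage markers minus the log summed early markers and divided into 5 equal bins per library. The Pf4 and Gata2 cluster, described below, was kept in the bins. The bins are ranges of a score, and the first bin is later in the CITE-seq library, with an early marker sum of 558 CPM against 1087 in the hashed one. Cd82 was higher in each bin than in the one before, at 7.57, 10.6, 19.5, 34.7 and 43.6 CPM in the hashed library and 10.5, 20.6, 25.3, 29.6 and 33.4 in the CITE-seq library. The last bin was 5.75-fold (4.03 to 8.45) and 3.18-fold (2.60 to 3.92) above the first. Cd37 ran the other way in each bin, at 45.2, 26.6, 16.4, 14.0 and 13.1 CPM and at 22.2, 14.3, 13.8, 12.4 and 9.23. Cd81 was also lower in each successive bin, from 259 to 176 and from 183 to 104 CPM. Summed markers of some other lineages were highest in the first bin too: from bin 1 to bin 2 of the hashed library, granulocyte progenitor markers went from 185 to 23.2 CPM and megakaryocyte markers from 78.3 to 17.8, and mast cell markers were also lower. In the CITE-seq library megakaryocyte markers went from 44.2 to 7.18 CPM and granulocyte progenitor markers from 19.5 to 3.62. Their part in the antigen levels was not tested.

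Complement regulators took another course along these bins. Cd59b ended highest, going from 2.38 to 7.79 CPM in the hashed library and from 3.65 to 11.3 in the CITE-seq library. Cd59a was lowest in between, at 18.6, 11.6, 7.96, 10.4 and 14.2 CPM in the hashed library and 11.7, 8.12, 10.3, 14.3 and 24.4 in the other, so its direction depended on which bins were compared. Between the end bins of the hashed library, 5 of 16 genes compared were lower in the last by at least 1.5-fold and 3 higher, with 23.4% and 10.6% of all genes. In the CITE-seq library 7 of 16 were lower and 3 higher, with 26.2% and 8.88% of all genes. In the CITE-seq library the lower genes included Cd81 (1.76-fold, 1.64 to 1.89), Cd3eap (1.91-fold, 1.73 to 2.10) and Cd44 (1.90-fold, 1.62 to 2.23), which passed 1.5-fold neither in a pool pair nor in the hashed library. Cd320 and Cd37 were among the lower and Cd82 and Cd59b among the higher genes in both libraries. Cd99l2 was among the higher genes in the hashed library alone, at 2.04-fold (1.43 to 2.95). In the CITE-seq library it was at 1.41-fold (1.13 to 1.75) and highest in bin 4.

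**Figure D3:**
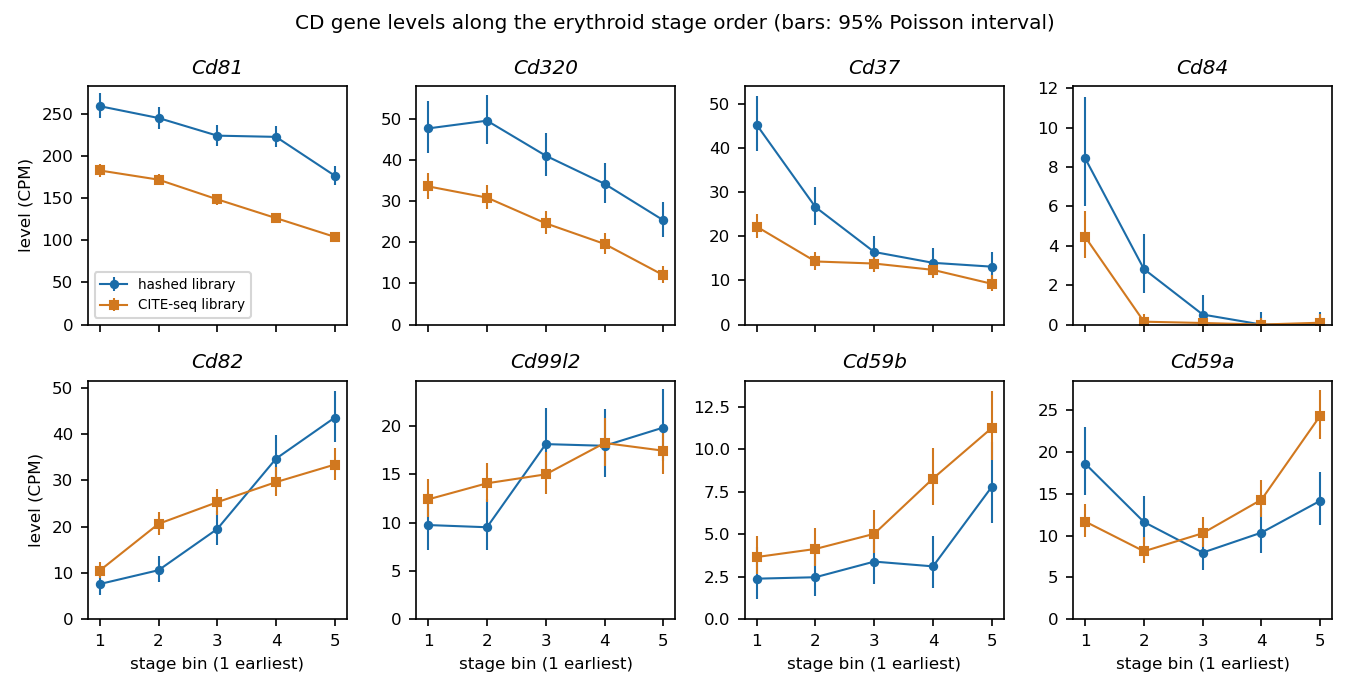
Level in CPM of 8 antigen genes in 5 equal bins of cells along the stage order (1 earliest), for the hashed and the CITE-seq library, with 95% Poisson intervals. Cd82 and Cd59b end higher than they begin in both libraries, Cd81, Cd320, Cd37 and Cd84 end lower, and Cd59a is lowest in bin 3 of the hashed and bin 2 of the CITE-seq library.

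Cd84, a self-binding receptor of the SLAM family known on platelets, mast cells and lymphocytes, was highest in the first bin. The marker sums of megakaryocytes, mast cells, granulocyte progenitors, monocytes and macrophages, and stem and multipotent progenitors were highest there too. Cd84 was at 8.44, 2.82, 0.508, 0 and 0 CPM in the hashed library and 4.45, 0.145, 0.0785, 0 and 0.0923 in the CITE-seq library. In pools it was at 6.24, 6.63 and 12.8 CPM in the earlier and 0.160, 0.727 and 0.683 in the later ones. PE-low was 9.12-fold (4.27 to 22.4) above PE-high, and the other pairs had under 50 UMIs. The other-lineage clusters held 57.7% of its UMIs, and without them the earlier pools were at 5.41, 4.70 and 10.6 CPM and the later ones at 0.161, 0.190 and 0.737. Of the UMIs left, the Pf4 and Gata2 cluster held 17 of 30 in FACS BFU-E and 18 of 25 in PE-low. In CS BFUE, 21 of 21 lay in a cluster of 131 CITE-seq cells led by Lgals4 and Epcam, at 15.2 CPM in its 58 CS BFUE cells. That cluster held early erythroid markers at 684 CPM, granulocyte progenitor markers at 31.6 and megakaryocyte markers at 32.5. Among hashed cells of the clusters described below, Cd84 was at 16.2 CPM in the Lyz2 cluster. It was at 10.4 in the Pf4 and Gata2 cluster and 7.53 in the mixed cluster. Its locus overlaps Gm51686 over 9019 bases.

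The clusters show in which cells each gene lay. The 4 other-lineage clusters were a mixed one of 206 cells led by Sparc, Mzb1 and Ebf1, one of 129 cells led by Ccr2 and Lyz2, one of 13 cells led by C1qa and Marco, and one of 185 CITE-seq cells led by Alb and Ttr. The mixed cluster also held early erythroid markers at 1155 CPM and granulocyte progenitor markers at 3003, and the Alb and Ttr cluster CFU-E stage markers at 2079, so not every cell in them need be of another lineage. A further cluster of 134 cells, 124 of them hashed, was led by Pf4, Gata2 and Itga2b and was not counted among them. The mixed, the Lyz2 and the Pf4 clusters held cells of both libraries, and every other cluster cells of 1 library. The other-lineage clusters held at least 50% of the UMIs of 16 of the 34 genes, and of 5.89% of the 10630 genes. They held at least 90% for 8 of the 34, and for 1.95% of all genes. The median share was 39.4% over the 34 genes and 14.54% over all genes, and these shares are a description of the cells clustered.

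**Figure D4:**
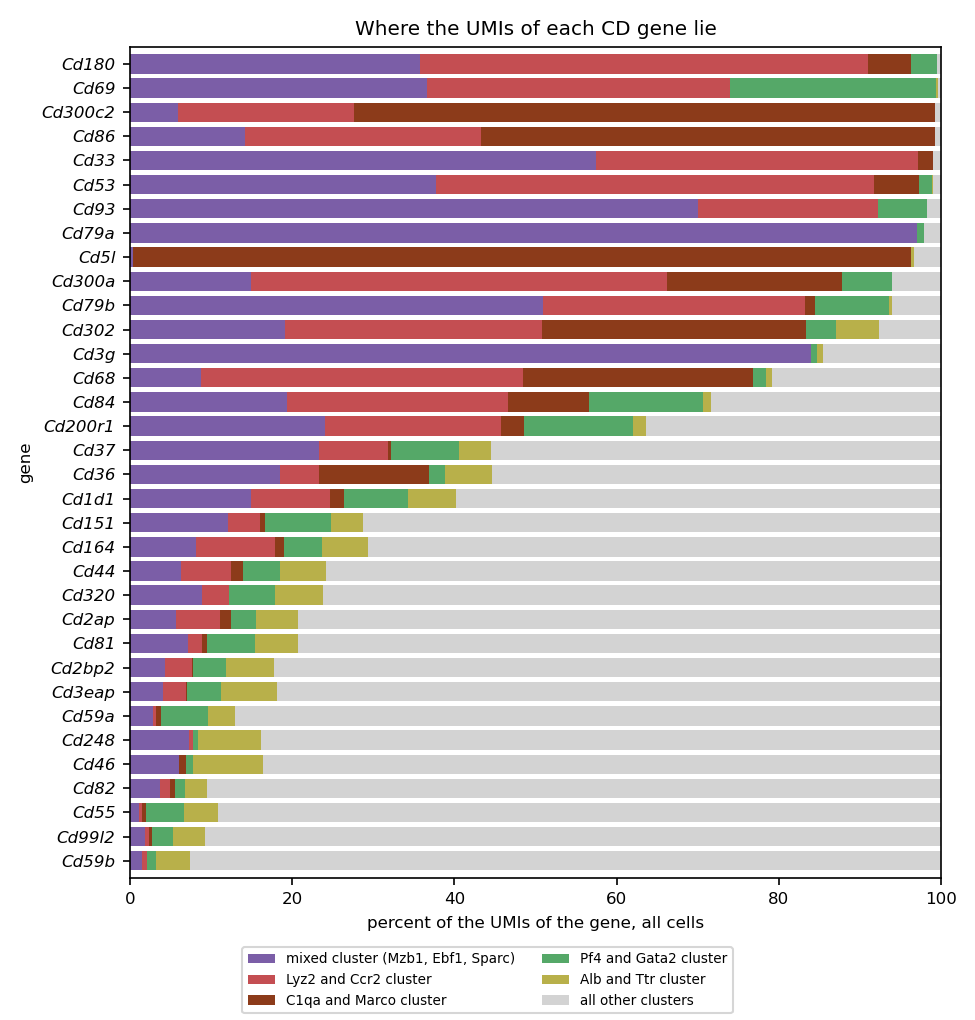
Percent of each gene's UMIs over all cells that lay in each of 5 named clusters or in all others (grey). Bars of Cd180, Cd300c2, Cd86, Cd33, Cd53, Cd93, Cd79a and Cd5l have over 90% in the other-lineage clusters, while Cd82, Cd55, Cd99l2 and Cd59b at the bottom have under 10%.

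At a finer clustering (resolution 2), taken up after the values were seen, the mixed and Lyz2 cells fell mostly into 4 groups named by leading genes: Ebf1 and Mzb1 (68 cells), Sparc and Col3a1 (113), Elane and Mpo (86), and Lyz2 and S100a8 (70). The unnamed clusters are the 2752 cells outside these 4 groups and outside the groups led by C1qa and Marco, Pf4 and Gata2, and Clec4d and Car1. The Clec4d and Car1 group held 120 CITE-seq cells, 59 of them CS BFUE, with early erythroid markers at 716 CPM and granulocyte progenitor markers at 26.9. Cd53, a tetraspanin of white blood cells, was at 63.7, 42.7, 92.2 and 125 CPM in the 4 groups and at 0.0901 in the unnamed clusters. A Cd53 UMI was found in 97.1% (90.1 to 99.7) of the Lyz2 and S100a8 cells, at a median of 21122.5 UMIs, and in 0.291% (0.126 to 0.572) of the cells of the unnamed clusters, at 31797, the background for such a share. In pools Cd53 was at 23.6, 22.3 and 7.41 CPM in the earlier and 0.642, 4.91 and 0.273 in the later ones. The ratio was 36.8 (14.1 to 136) in the FACS pair and 4.54 (3.32 to 6.31) in the PE pair. Without the other-lineage clusters the levels were 1.62, 0.188 and 0 CPM against 0.322, 0.379 and 0.147, with at most 9 UMIs in a pool. PE-low then had 1 UMI and PE-high 4, too few to give a direction.

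Other receptors of myeloid cells were also highest in the Lyz2 and S100a8 group of these 4. Cd300a, an inhibitory receptor, was at 3.79, 10.4, 26.8 and 69.6 CPM in the groups led by Ebf1, Sparc, Elane and Lyz2. Cd302, a C-type lectin, was at 7.57, 14.0, 17.2 and 42.9 CPM in that order. Cd68 was at 7.57, 6.10, 14.9 and 47.2 CPM, and Cd180, a relative of the Toll-like receptors, at 21.5, 10.8, 15.3 and 42.9. In the unnamed clusters they were at 0.687 CPM or less. By contrast Cd33, a sialic acid binding lectin, was highest in the Ebf1 and Mzb1 group, at 27.8 CPM (20.2 to 37.3), and Cd200r1, an inhibitory receptor, differed little, at 8.84 to 12.4.

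In the PE pair 4 of these receptors were higher early. PE-low was above PE-high 7.17-fold (3.89 to 14.2) for Cd300a, 9.32-fold (4.73 to 20.4) for Cd180, 2.94-fold (1.64 to 5.43) for Cd68 and 2.68-fold (1.55 to 4.76) for Cd302. Cd300a was also compared in the FACS pair, at 11.4 (4.21 to 43.4), and the others in the PE pair alone. Over the 6 pools Cd68 overlapped between stages, with 1.68 CPM in CS BFUE and 1.73 in PE-high. Cd33 was at 3.66, 5.36 and 2.36 CPM in the earlier pools and 0, 0.818 and 0 in the later ones. Without the other-lineage clusters none of these had 50 UMIs in the PE pair: Cd180 had 0 UMIs in PE-low, and Cd68 was at 0.751 CPM in PE-low and 0.853 in PE-high.

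Cd93, a lectin-like receptor of early B cells and other progenitors, peaked elsewhere. It was at 80.1 CPM in the Ebf1 and Mzb1 group, 63.8 in the Sparc and Col3a1 group, 42.1 in the Elane and Mpo group and 14.3 in the Lyz2 and S100a8 group, and at 0.0338 in the unnamed clusters. The pools were at 19.1, 18.4 and 18.2 CPM early and 0.642, 2.45 and 0.410 late. The earlier pools were higher by 29.8-fold (11.4 to 111), 7.48-fold (4.91 to 11.8) and 44.4-fold (14.4 to 222). Without the other-lineage clusters the levels were 3.97, 0.564 and 1.01 CPM against 0, 0.284 and 0.147.

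The other-lineage clusters held 8.34% of the UMIs of Cd82, 57.7% of Cd84, 97.4% of Cd53 and 77.4% of Cd68. Outside them Cd82 and Cd84 differed between stages, Cd84 on at most 30 UMIs in a pool. Promoters are shown for these 4 genes. Each is the 250 bases before a start of the gene (RefSeq, GRCm38.p6), 5′ to 3′ on the strand of the gene. Capitals mark GAGGAA, the core bound by PU.1, a regulator of white blood cell genes. The stretches are chr2:93462951-93463200 on the minus strand, chr1:171839447-171839696 on the plus strand, chr3:106790150-106790399 on the minus strand and chr11:69666171-69666420 on the minus strand.
Cd82: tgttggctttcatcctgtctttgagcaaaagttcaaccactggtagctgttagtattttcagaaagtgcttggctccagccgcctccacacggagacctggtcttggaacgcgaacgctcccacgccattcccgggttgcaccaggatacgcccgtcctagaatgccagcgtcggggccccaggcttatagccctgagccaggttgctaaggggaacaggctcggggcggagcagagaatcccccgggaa
Cd84: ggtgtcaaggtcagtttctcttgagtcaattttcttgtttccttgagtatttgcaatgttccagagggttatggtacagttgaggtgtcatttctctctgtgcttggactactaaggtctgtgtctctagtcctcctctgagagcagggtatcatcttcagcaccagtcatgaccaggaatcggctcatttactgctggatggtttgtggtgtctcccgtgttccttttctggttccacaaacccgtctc
Cd53: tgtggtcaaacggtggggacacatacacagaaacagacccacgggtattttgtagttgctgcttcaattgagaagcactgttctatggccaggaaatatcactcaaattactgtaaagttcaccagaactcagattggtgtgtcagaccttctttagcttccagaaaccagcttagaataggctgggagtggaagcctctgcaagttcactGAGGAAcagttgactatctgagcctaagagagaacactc
Cd68: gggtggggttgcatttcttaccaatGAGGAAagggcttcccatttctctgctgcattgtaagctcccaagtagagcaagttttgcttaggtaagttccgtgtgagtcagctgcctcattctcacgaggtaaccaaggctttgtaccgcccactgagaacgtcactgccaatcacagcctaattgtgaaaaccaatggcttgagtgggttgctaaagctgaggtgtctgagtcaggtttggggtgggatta
GAGGAA, searched on both strands, had 1 match in the Cd53 and 1 in the Cd68 stretch and 0 in those of Cd82 and Cd84. Cd82 has 4 promoter entries, and GAGGAA was in 1 of the others. AGATAA, the core bound by GATA factors, had 0 matches in all 4. Over the 250 bases before each start, of the 33 promoter entries of the 27 genes with one, 14 held GAGGAA and 4 held AGATAA, and of 32851 promoters 23.3% and 9.99% did. A match describes letters and shows no binding.

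The 13 cells led by C1qa and Marco, all CITE-seq cells with no pool, held the highest levels of the macrophage genes. Cd5l was at 2827 CPM there, with 96.0% of its UMIs. Cd300c2, an activating receptor, was at 497 CPM with 71.6% of its UMIs, and Cd86, a ligand for T cell costimulation, at 368 CPM with 55.9%. All 13 cells had a UMI of each, at a median depth of 15521, against 0.727%, 0.0363% and 0.0363% of the cells of the unnamed clusters at 31797. Cd302 and Cd68 also peaked there, at 549 and 435 CPM. Cd53 was at 207 CPM there, above its level in the Lyz2 and S100a8 group. These 13 cells also held 21.6% of the UMIs of Cd300a, 10.0% of Cd84 and 5.26% of Cd180. Beside a monocyte and macrophage marker sum of 18301 CPM, these cells held erythroblast markers at 11421. In the 6 pools Cd5l was at 0 to 0.337 CPM.

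Lymphocyte receptor genes lay in few cells. Cd79a, a signalling chain of the B cell receptor, had 97.0% of its UMIs in the mixed cluster, and the 17 cells with at least 3 UMIs held Ebf1 at 747 CPM. Cd3g, a chain of the T cell receptor complex, had 50% of its UMIs in 3 cells, and the 8 cells with at least 3 UMIs, all CITE-seq cells with no pool, held Trbc2 at 2139 CPM. Cd79b, the partner chain of Cd79a, was found more widely: 20 cells had UMIs of both, while 315 had Cd79b and no Cd79a. Of these, 110 lay in the mixed cluster, 100 in the Lyz2 cluster and 52 in the Pf4 cluster, and together they held Ebf1 at 3.42 CPM and granulocyte progenitor markers at 2458. At the finer clustering Cd79b was at 158 CPM in the Ebf1 and Mzb1 group, 87.0 in the Lyz2 and S100a8 group, 60.8 in the Elane and Mpo group, 37.6 in the Sparc and Col3a1 group and 19.6 in the Pf4 and Gata2 group, against 0.371 in the unnamed clusters. In the resolution 1 cluster led by Lgals4 and Epcam it was at 5.37.

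In pools Cd79b was at 23.1, 25.6 and 16.8 CPM early and 3.37, 3.54 and 1.78 late. The earlier pools were higher by 6.84-fold (4.33 to 11.3), 7.21-fold (5.08 to 10.5) and 9.48-fold (5.07 to 19.0). In FACS CFU-E, 1 cell carried 95.2% of the Cd79b UMIs, and without the top cell of each pool the log2 ratio of the FACS pair was 7.06 in place of 2.77. Outside the other-lineage clusters the earlier pools were at 7.76, 7.14 and 5.56 CPM and the later ones at 0.161, 0.474 and 0.442. Of the UMIs left, the Pf4 and Gata2 cluster held 35 of 43 in FACS BFU-E and 30 of 38 in PE-low. In CS BFUE, 7 of 11 lay in the cluster led by Lgals4 and Epcam. The gene lies at chr11:106311341-106314562.

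Cd69, an early activation antigen that keeps lymphocytes in tissue by acting on a sphingosine phosphate receptor, differed both by stage and by isolation. It was at 43.0, 14.7 and 15.8 CPM in the earlier pools and 0.160, 1.73 and 0.957 in the later ones. The stage ratios were 268 (47.7 to 10614) in the FACS pair, where the later pool had 1 UMI, 8.50 (5.18 to 14.7) in the PE pair and 16.6 (7.43 to 43.4) in the CS pair. Outside the other-lineage clusters few Cd69 UMIs were left in the PE pair (2 and 2, at 0.376 and 0.190 CPM) and the CS pair (1 and 0). FACS BFU-E was then at 33.7 CPM and FACS CFU-E at 0. With the 0 set to 3 counts FACS BFU-E was 69.9-fold higher, and the interval of the ratio began at 56.3. FACS BFU-E was 2.93-fold (2.34 to 3.69) above PE-low, and 89.8-fold (24.5 to 747) without the other-lineage clusters.

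Few other genes of the set separated the isolations within a stage. Between PE-low and FACS BFU-E, 25 genes were compared: Cd69 was higher in FACS BFU-E and Cd180, at 1.95-fold (1.25 to 3.10), in PE-low, while 2.36% and 2.38% of all genes were (4.73% either way). Between PE-high and FACS CFU-E, 1 of 17 was higher in PE-high (Cd53, 7.65-fold, 2.82 to 29.1) and 0 in FACS CFU-E, with 4.7% and 0.884% of all genes (5.58% either way). Without the other-lineage clusters the counts were 0 higher in PE-low and 1 in FACS BFU-E of 17 (1.44% and 2.62% of all genes), and 0 each way of 14 in the later pools (2.84% and 1.03%). Cd81 gave 1.06 (0.993 to 1.13) for PE-low over FACS BFU-E and 1.00 (0.933 to 1.07) for PE-high over FACS CFU-E. These comparisons share their pools with the stage pairs.

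The excess of Cd69 in FACS BFU-E over PE-low lay mainly in the Pf4 and Gata2 cluster, a split by cluster and pool chosen after the levels were seen. There 63 FACS BFU-E cells held 186 Cd69 UMIs (105 CPM, in 18 cells), and 56 PE-low cells held 1 UMI (0.597 CPM), a ratio of 177 (31.3 to 7014). In the mixed cluster the pools were at 59.9 and 48.8 CPM, a ratio of 1.23 (0.843 to 1.80), and in the Lyz2 cluster at 91.8 and 70.0, a ratio of 1.31 (0.887 to 1.94). Among other antigens of the Pf4 and Gata2 cluster, the ratio was 0.897 (0.434 to 1.84) for Cd84, 1.11 (0.661 to 1.87) for Cd79b, 1.13 (0.829 to 1.54) for Cd37 and 0.865 (0.760 to 0.983) for Cd81. Others leaned to FACS BFU-E on few UMIs: Cd93 had 21 UMIs (11.9 CPM, 7.37 to 18.2) against 3 (1.79, 0.369 to 5.24), Cd53 had 9 against 0 and Cd180 6 against 0.

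**Figure D5:**
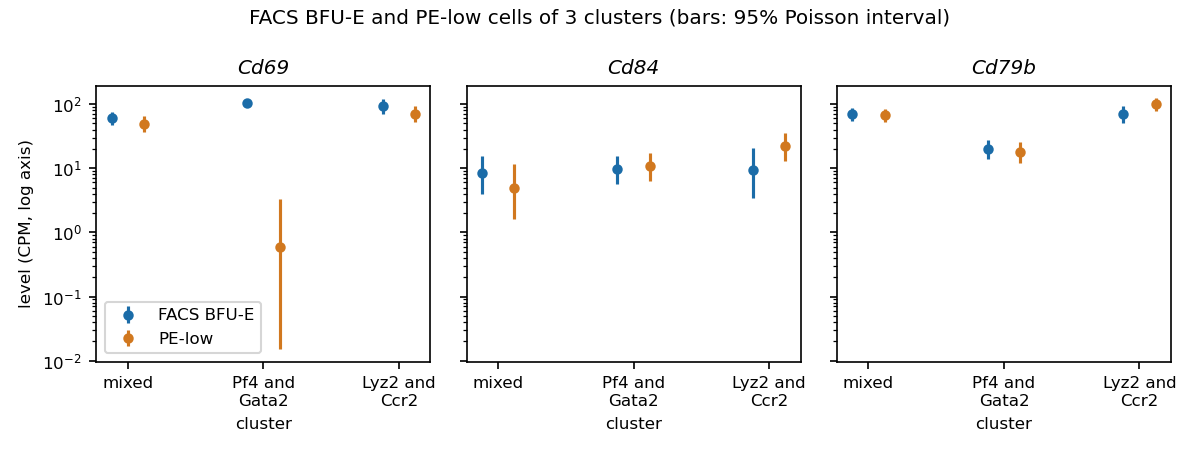
Level in CPM (log axis) of Cd69, Cd84 and Cd79b in FACS BFU-E and PE-low cells of the mixed, the Pf4 and Gata2 and the Lyz2 and Ccr2 clusters, with 95% Poisson intervals. Cd69 is at 105 CPM in FACS BFU-E and 0.597 in PE-low cells of the Pf4 and Gata2 cluster, while in every other pair of points the intervals overlap.

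Immediate early genes, which respond quickly to signals or stress, moved with Cd69 between these pools. Jun was at 279 CPM in FACS BFU-E and 13.6 in PE-low, and Fos at 42.0 and 2.40. In the Pf4 and Gata2 cluster Jun was at 472 and 5.97 CPM, a ratio of 79.1 (42.8 to 166), and Fos had 126 UMIs against 0, at least 39.9-fold higher. Jun also differed in the mixed cluster (360 and 34.8 CPM) and the Lyz2 cluster (533 and 47.6 CPM), where the interval of the Cd69 ratio included 1. Of the 63 FACS BFU-E cells, the 18 with a Cd69 UMI held Jun at 1075 CPM and granulocyte progenitor markers at 741, and the 45 without held 267 and 161. Mast cell markers were at 123 CPM in the cells with a Cd69 UMI and 29.7 in those without, and stem and multipotent progenitor markers at 587 and 312. Megakaryocyte markers (98.2 and 96.6) and early erythroid markers (1091 and 1132) were close. The part of any of these in the Cd69 difference was not tested.

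Antigens with other symbols were counted in the same way. Of 70 genes of CD antigens named otherwise, 45 were compared in the FACS pair, 26 higher early and 8 late, where 19.2% and 9.56% of all genes were. In the PE pair the counts were 28 and 9 of 50 (16.3% and 7.52% of all genes), and in the CS pair 11 and 8 of 30 (14.8% and 11.9%). The median log2 ratios were 1.11, 1.11 and 0.03, against 0.04, 0.04 and -0.01 over all genes. The 6 with the largest ratios in the FACS pair, Ifitm1, Ptprc, Pecam1, Il6ra, Itgal and Csf1r, were all higher early. Ptprc, the pan-leukocyte antigen CD45, was at 32.1, 31.5 and 41.1 CPM in the earlier pools and 0.321, 5.45 and 1.503 in the later ones. Tetraspanins outside the set went both ways: of 11 compared in each pair, 4, 2 and 4 were higher early (19.2%, 16.3% and 14.8% of all genes) and 3 late in each (9.56%, 7.52% and 11.9%). Tspan33 was at 27.5, 36.4 and 18.9 CPM early and 195, 156 and 129 late, and Tspan8 at 11.9, 17.5 and 12.1 against 73.3, 60.1 and 46.6, the order seen for Cd82.

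The rest of the set was scarce, and its genes are named after their values were seen. Cd36, the fatty acid and thrombospondin receptor, was at 0 to 1.27 CPM in the 6 pools, and 1 cell held 77.8% of its UMIs in PE-low. Cd46, a complement regulator, was at 0.481 to 1.41 CPM and Cd248, an endosialin, at 0 to 2.46. Although higher in the 3 later pools, Cd248 had no single direction along the 5 bins. From the first to the last bin it went from 0 to 2.30 CPM in the hashed library. In the CITE-seq library it went from 1.75 to 0.738, 2.37-fold lower (1.02 to 6.15). In all, 9 of the 34 genes had under 50 UMIs in each of the 3 stage pairs and could not be compared there.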

How the data were processed

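Fetal liver progenitors were profiled with a 10x 3′ kit, in a hashed library (904 cells) and a CITE-seq library (2453 cells). The tools named are Cell Ranger 4.0.0 and Scanpy on mm10, per the submitters' processing notes, and filters on cells were not given in the sources used here. Deposited values are on a natural log scale, of a cell's counts per 10000 with 1 added. Each linear value was divided by the smallest nonzero one of its cell, which made 16419767 of 16419767 nonzero values whole within 0.02, and the comparisons planned for counts were made on these recovered UMIs. Pool names are those of the deposited cell table, and cells whose barcodes do not end like those of the hashed pools were taken as the CITE-seq library. Symbols were found for 17582 gene IDs.

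UMIs were summed per pool and scaled to CPM of the pool total, not to gene length. A gene was compared with at least 100 UMIs in the matrix and 50 over both pools, and counted at 1.5-fold, a size and not a test. Intervals are exact conditional binomial for ratios, exact Poisson for levels and Clopper-Pearson for shares, all at 95%. A side at 0 was set to 3 counts. Cells were clustered without the 34 genes (scanpy 1.11.5, Leiden 0.10.2, 2000 variable genes, 30 principal components, 15 neighbours, resolution 1). A cluster was other-lineage with at least 2 markers of 1 such list among its top 10 genes by fold (at 50 CPM or more), and more than of the erythroid lists. Scrublet marked 2 (0.221%) and 23 (0.938%) cells as doublets, which were kept. The ratio step was tested on simulated counts.

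The members and gene lists were chosen with earlier results of these data known. Named genes are those past 1.5-fold in a stage pair, those with at least 50% of UMIs in other-lineage clusters, the 5 with the most UMIs, and up to 6 per other list. Alternatives changed the fold, the floor, scaling, cell weights, cells used, depth, resolution and bins. Gene positions and promoters are RefSeq's for GRCm38.p6, the assembly mm10 stands for.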

Additional observations from a re-analysis of the deposited data

How the results depend on the processing

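No paired analysis was possible because each pool is 1 sample. Shares over all genes were taken for the main setting and for that without the other-lineage clusters, and are given above. The counts below under other settings have no such share beside them, so they cannot be set against all genes. With no floor on the pair, the genes higher in the earlier and later pool numbered 14 and 6 in the FACS pair and, in the CS pair, 18 and 4. With no floor there were also 6 higher in PE-low and 2 in FACS BFU-E, and 13 higher in PE-high and 1 in FACS CFU-E. With 200 UMIs over both pools, the FACS pair gave 2 and 1, the CS pair 2 and 0, PE-low over PE-high 3, PE-low over FACS BFU-E 0 and PE-high over FACS CFU-E 0. At 2-fold, CS CFUE over CS BFUE gave 1 and PE-low over FACS BFU-E 0. Without the other-lineage clusters, whether or not the Alb and Ttr cluster was kept (a choice added after seeing the data), the earlier pool was higher for 4 genes in the FACS pair, 2 in the PE pair and 3 in the CS pair, and PE-low over FACS BFU-E and PE-high over FACS CFU-E gave 0 and 0. In those settings the sign turned, on few UMIs, for Cd53 (-1.01 log2, 1 and 4 UMIs) and Cd68 (-0.18, 4 and 9 UMIs) in PE-low over PE-high, with ratio intervals of 0.0101 to 5.01 and 0.198 to 3.16 that include 1, and for Cd180 in PE-low over FACS BFU-E (-0.94, 0 and 6 UMIs, with the 0 set to 3 counts), so none is a shown reversal. With every cell thinned to 10000 UMIs, FACS BFU-E over FACS CFU-E gave 12, PE-low and FACS BFU-E against each other 2 and 2, and PE-high over FACS CFU-E 5. With each cell weighted alike, PE-low over FACS BFU-E gave 2 and PE-high over FACS CFU-E 2. Without the top cell of each gene and pool, CS BFUE over CS CFUE gave 4 and PE-high over FACS CFU-E 0. The counts with other floors follow from the number of genes compared, and for the rest the cause was not tested. Median-of-ratios scaling and removal of marked doublets kept all 10 counts within 1.5 times. At resolution 2 the share of UMIs in other-lineage clusters moved for 26 of 29 named genes, as for Cd53 (97.4% to 69.4%) and Cd84 (57.7% to 35.1%), and at resolution 0.5 for 13. Depth limits the genes near 1 CPM, where a pool holds few UMIs.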
